A study of Mus musculus with 70 samples.

Results

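The 27 genes described here encode the enzymes, controllers and carriers of cellular cholesterol supply. They were chosen by name from the deposited mouse count tables. There are 8 enzymes from acetyl-CoA to farnesyl and geranylgeranyl pyrophosphate (Acat2, Hmgcs1, Mvk, Pmvk, Mvd, Idi1, Fdps and Ggps1) and 12 enzymes from squalene to cholesterol (Fdft1, Sqle, Lss, Cyp51, Tm7sf2, Lbr, Msmo1, Nsdhl, Hsd17b7, Ebp, Sc5d and Dhcr7). The other 7 are 5 controllers of the transcription factor SREBP2 (Srebf2, Scap, Insig1, Insig2 and Rnf145) and 2 genes of sterol movement (Stard4 and Npc1). All 27 were present among the 24982 gene symbols of the female liver and macrophage tables and the 23839 of the male liver table, and all 27 passed the filter on low counts in all 24 comparisons. RNA was sequenced from total liver and from F4/80high CD11blow liver resident macrophages of mice fed a NASH (nonalcoholic steatohepatitis) diet or a control diet for 24 weeks. The mice were OpnKI Mye (KI here) or Lyz2.Cre+/+ (WT here). By their names, KI mice carry an osteopontin knock-in (gene Spp1) aimed at myeloid cells, and WT mice the myeloid Lyz2 Cre driver alone. No group lacking both was analysed here. Reads of Acat2 could be split with its near-identical neighbour Acat3, so its counts are uncertain. Groups held 4 libraries, or 5 in males and 6 in females for macrophages on the NASH diet. Male WT control livers gave 3, since 2 of their 4 files are versions of 1 library. The labels do not state that libraries come from separate animals, so p-values measure only the spread between these libraries, which may be technical.

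Cells make cholesterol from acetyl-CoA through mevalonate, farnesyl pyrophosphate, squalene and lanosterol. When sterol in the endoplasmic reticulum is low, Scap escorts SREBP2 to the Golgi, where it is cleaved and freed to switch on nearly every gene of the pathway; when sterol is ample, the Insig proteins hold Scap and SREBP2 back. The liver is a main site of synthesis, and it also takes up cholesterol from the diet, so that dietary cholesterol is known to lower these mRNAs.

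SREBP2 binds sterol regulatory elements that lie close to the start sites of its targets, usually next to sites for NF-Y, which reads CCAAT. Because many of the genes passed the test in the same comparison, 4 promoters are shown: Hmgcs1 (the synthase before mevalonate) and Insig1, the 2 members whose window held both motifs, and Idi1 and Cyp51, 2 of the members that fell most in WT male livers. Each runs from 250 bases before to 50 bases after the start (RefSeq, build GRCm38.p6), with every CACNCCAC (a sterol regulatory element core) and CCAAT in capitals on either strand. The windows are chr13:119690101-119690400 on the plus strand (Hmgcs1), chr5:28071162-28071461 on the plus strand (Insig1), chr13:8885356-8885655 on the plus strand (Idi1) and chr5:4104648-4104947 on the minus strand (Cyp51).
Hmgcs1: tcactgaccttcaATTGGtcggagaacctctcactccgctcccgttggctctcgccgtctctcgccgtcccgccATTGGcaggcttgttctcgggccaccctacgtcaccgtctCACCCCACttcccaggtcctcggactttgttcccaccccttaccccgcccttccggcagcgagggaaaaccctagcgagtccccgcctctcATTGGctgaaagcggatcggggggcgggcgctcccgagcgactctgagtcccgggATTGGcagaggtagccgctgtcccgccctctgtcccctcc
Insig1: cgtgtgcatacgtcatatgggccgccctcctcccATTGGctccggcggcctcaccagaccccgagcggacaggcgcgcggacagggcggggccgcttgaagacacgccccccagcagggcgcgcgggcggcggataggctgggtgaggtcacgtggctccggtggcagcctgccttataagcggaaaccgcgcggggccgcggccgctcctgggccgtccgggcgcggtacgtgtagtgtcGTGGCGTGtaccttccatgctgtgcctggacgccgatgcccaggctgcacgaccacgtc
Idi1: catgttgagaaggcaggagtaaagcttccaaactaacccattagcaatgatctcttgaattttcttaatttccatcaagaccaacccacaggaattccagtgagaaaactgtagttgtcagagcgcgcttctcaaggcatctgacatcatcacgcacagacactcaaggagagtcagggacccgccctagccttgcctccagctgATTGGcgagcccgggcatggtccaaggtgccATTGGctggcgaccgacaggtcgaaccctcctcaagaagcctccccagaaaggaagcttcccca
Cyp51: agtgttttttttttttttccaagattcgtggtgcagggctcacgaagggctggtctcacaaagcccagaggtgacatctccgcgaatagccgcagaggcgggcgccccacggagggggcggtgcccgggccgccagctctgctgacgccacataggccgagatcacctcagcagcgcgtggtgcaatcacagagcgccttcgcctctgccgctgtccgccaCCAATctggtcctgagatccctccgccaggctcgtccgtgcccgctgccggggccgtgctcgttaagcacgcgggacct
RefSeq windows were at hand for 22 of the 27 members, and Fdps, Fdft1, Sqle, Stard4 and Npc1 had none there. The CCAAT box stood in 19 of the 22 (86.4%), against 41.1% of the 27025 genes with a window, and the GC box GGGCGG in 20 of the 22 (90.9%), against 38.2%. The sterol element core stood in 3 of the 22 (13.6%; Acat2, Hmgcs1 and Insig1), against 7.12%. The motifs were searched on both strands, none of the 3 contains another, and a gene with several start windows counts if any of them holds the motif. The 27025 genes were not limited to those expressed in these tissues, while all 27 members passed the filter on low counts. A match describes letters only.

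Total counts per library were 11245097 to 29966174 in liver and 16512356 to 26244679 in macrophages, and the 27 genes summed to 1694.5 to 5572.3 CPM (counts scaled to library size) of each liver library and 902 to 1328 CPM of each macrophage library. Spp1 was set against the genotype labels. In macrophages on the control diet it separated the genotypes, at 7.12 to 11.3 CPM in KI males against 0.268 to 0.516 CPM in WT males and at 1.43 to 2.47 CPM in KI females against 0 to 0.199 CPM in WT females. On the NASH diet the macrophage ranges overlapped, at 43.7 to 198.6 CPM in KI males against 5.72 to 55.9 CPM in WT males and at 2.17 to 102 CPM in KI females against 1.15 to 11.1 CPM in WT females. In NASH livers Spp1 ran the other way, at 22.2 to 65.8 CPM in KI males against 133 to 698 CPM in WT males and at 26.6 to 58.0 CPM in KI females against 53.4 to 92.8 CPM in WT females, and in control livers the genotypes overlapped in both sexes. The male WT control liver library deposited in 2 versions, and replicate 4 of the male WT control macrophages, carry sex genes against their label (Xist counts of 7035, 8377 and 19051, and Ddx3y counts of 5, 5 and 9). Both versions of that liver library count in the ranges of total counts, Spp1, Lyz2 and summed markers of male WT control livers. Lyz2, the locus that carries the Cre, separated the genotypes in 3 of the 4 pairs of liver groups, and in opposite directions by sex. In male livers it ran at 1.10 to 54.9 CPM in KI against 139 to 310.5 CPM in WT on the NASH diet, and at 0.480 to 26.8 CPM in KI against 33.5 to 96.0 CPM in WT on the control diet. In female livers it ran at 1.25 to 69.0 CPM in KI against 1.40 to 2.15 CPM in WT on the NASH diet, and at 19.9 to 43.4 CPM in KI against 1.05 to 2.58 CPM in WT on the control diet. Across macrophage libraries it ran from 43.3 to 3782 CPM, with wide ranges inside groups. Lyz2 also separated the diets in WT male livers, by the ranges above. In WT female macrophages its median was 132 CPM on the control diet and 2553 CPM on the NASH diet. In KI female macrophages the medians were 94.3 and 2098 CPM. The ranges of these female groups overlapped, and in male macrophages the group medians were 1955 to 3058 CPM. Lyz2 thus moves in liver with the comparisons of KI with WT, of the sexes and, in WT males, of the diets. Its part in any comparison was not tested. The macrophage libraries carried the Kupffer cell markers at a summed 16814 to 45502 CPM, and all 10 hepatocyte markers were detected in every one of them, at a summed 24.9 to 2848 CPM, against 48436 to 177710 CPM in liver.

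All 27 genes were detected in both tissues, at different relative levels. Levels between genes are compared as TPM, which divides each count by gene length (GENCODE M21 exons). By median over libraries, 5 of the 27 genes were higher in macrophages (n = 38) and 22 in liver (n = 31). In macrophages the highest was Insig1, which holds SREBP2 back (median 154 TPM, range 106 to 307), followed by Rnf145, a sterol-responsive ubiquitin ligase (78.7 TPM, 59.4 to 107). Next came Ebp, the sterol isomerase (51.8 TPM, 45.4 to 64.1), and the lysosomal cholesterol exporter Npc1 (51.4 TPM, 38.4 to 73.1), whose ranges overlap. The lowest in macrophages were Idi1, the isomerase of isoprenoid units (2.03 TPM, 0.591 to 4.89), the squalene epoxidase Sqle (1.59 TPM, 0.122 to 7.67) and the keto-sterol reductase Hsd17b7 (0.947 TPM, 0.549 to 3.22), which overlap too. In liver the order was Ebp (277 TPM, 207 to 396), the desaturase Sc5d (265 TPM, 154 to 590) and Insig1 (238 TPM, 90.5 to 639), with overlapping ranges, and then Fdps, Insig2 and Hmgcs1 at medians of 106, 101 and 93.5 TPM. The lowest in liver were Idi1 (10.2 TPM), Lbr (6.36 TPM) and Ggps1 (5.94 TPM), the last of which makes geranylgeranyl pyrophosphate for protein prenylation.

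The largest ratios between the tissues were those of Hsd17b7 and Sc5d. The macrophage median was 0.0317 of the liver median for Hsd17b7 and 0.0353 for Sc5d. It was 0.0773 for Fdft1, 0.0878 for Acat2 and 0.0954 for Fdps. In the other direction it was 7.0 times the liver median for Lbr, 3.53 times for Rnf145, 2.67 times for Ggps1 and 1.94 times for Srebf2, the gene of SREBP2 itself. Tm7sf2 and Lbr encode the 2 sterol C14 reductases, which do the same step, and their order was opposite: Lbr was 8.13 times Tm7sf2 in macrophages (medians 44.5 and 5.47 TPM), and Tm7sf2 was 7.0 times Lbr in liver (44.5 and 6.36 TPM), with ranges that did not overlap in either tissue. Tissue, sort and RNA kit differ together here and cannot be told apart, so these levels carry no test.

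**Figure D1:**
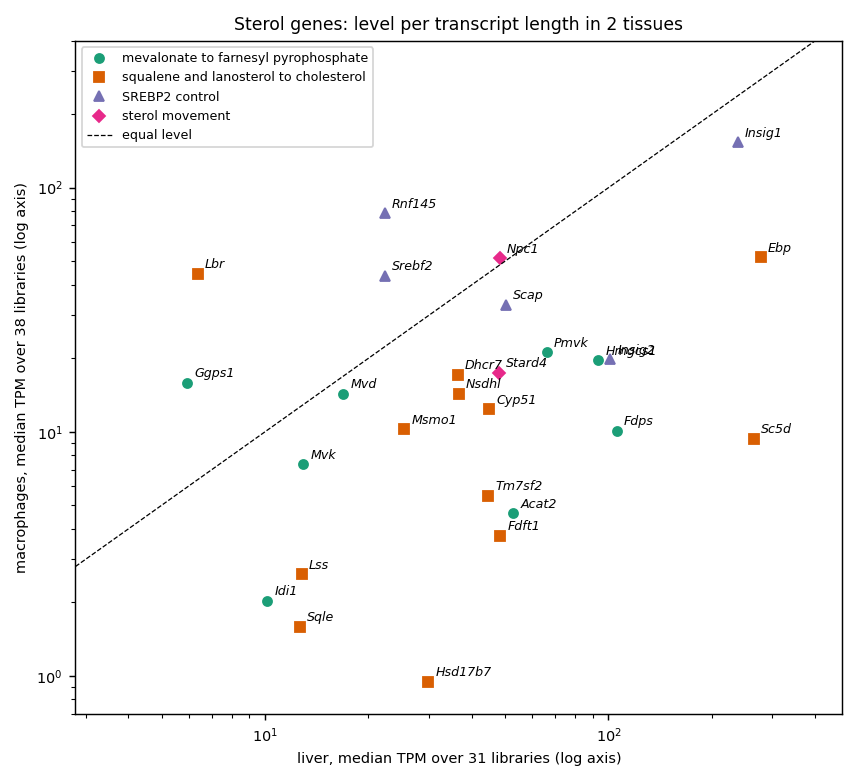
Median TPM of each of the 27 genes in macrophages (vertical axis, 38 libraries) against liver (horizontal axis, 31 libraries), both on log axes, with symbols for the role of the gene and a dashed line of equal level. The 5 genes above the line are Lbr, Rnf145, Ggps1, Srebf2 and Npc1, and Hsd17b7 and Sc5d lie farthest below it.

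Changes were tested in each tissue and sex with edgeR's quasi-likelihood test over all genes, and a gene is said to rise or fall where its adjusted p was under 0.05. Levels are TMM-scaled CPM, and fold changes are log2. Most calls for the diet fell into 3 blocks. In livers of WT males 16 of the 27 genes fell on the NASH diet, beside 9.76% of all genes, and in livers of KI females 18 fell, beside 4.63%. In macrophages of KI males 12 rose, beside 15.1% of all genes.

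**Figure D2:**
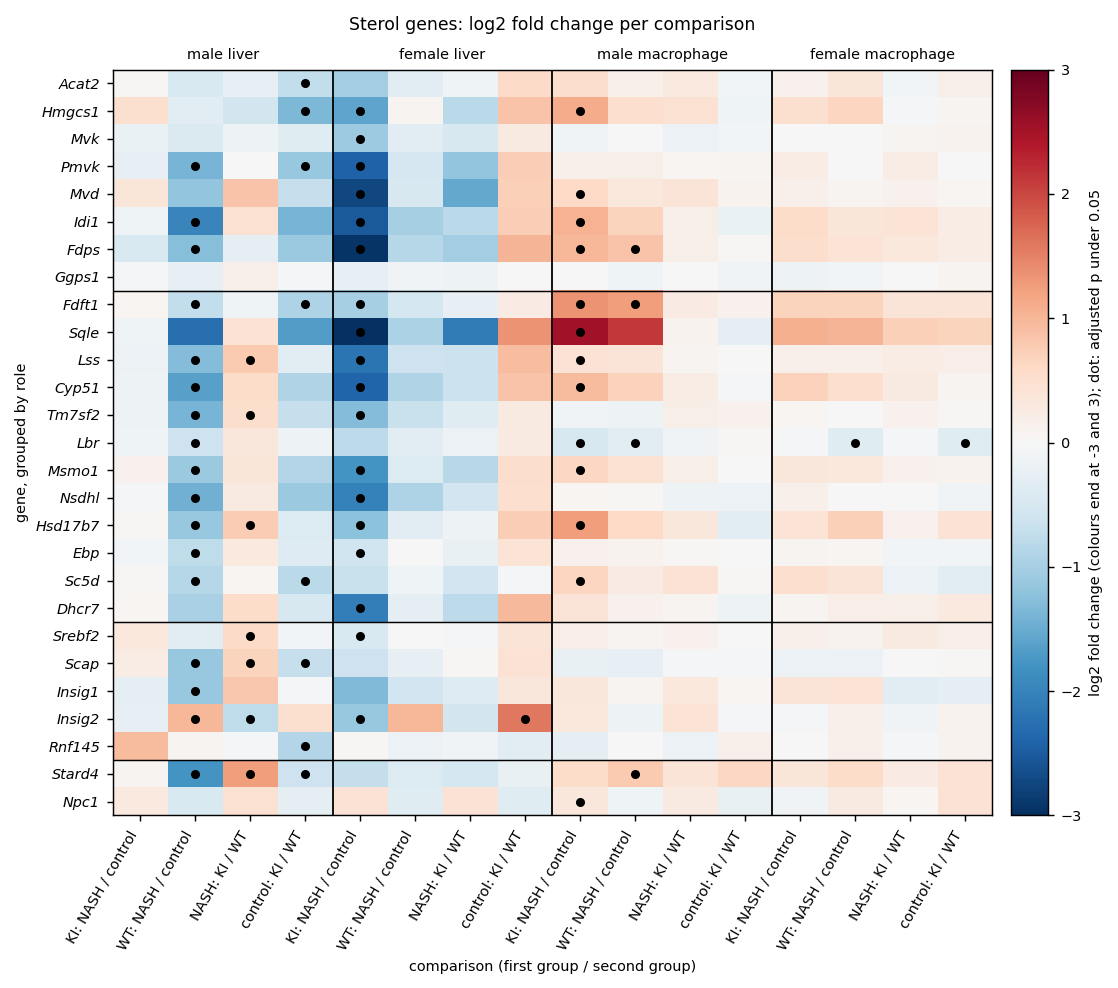
Log2 fold change of the 27 genes (rows, grouped by role) in the 16 comparisons of 2 groups (columns), red for higher in the first group named and blue for lower, with a dot where the adjusted p is under 0.05. The 16 blue dots of WT male liver, the 18 of KI female liver and the 12 red dots of KI male macrophages are the 3 largest blocks.

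In livers of WT males 1 gene rose (Insig2) beside the 16 that fell, with a median log2 fold change of -1.11 over the members and -0.01 over all genes tested. Of the 12988 genes tested there, 9.76% fell and 21% changed either way. By role, 3 of the 8 early enzymes fell, 10 of the 12 enzymes from squalene on, 2 of the 5 controllers and 1 of the 2 carriers.
Idi1, which interconverts the 2 isoprenoid building blocks, had 14.3, 12.9, 11.7 and 4.44 CPM in WT NASH livers, against 26.5, 63.0 and 38.3 CPM in WT control livers. The groups did not overlap, and its log2 fold change was -1.98, SE 0.42, adjusted p = 0.0061.
Stard4, a cytosolic carrier that moves sterol between membranes, had 26.7, 31.9, 40.0 and 39.8 CPM in WT NASH livers, against 101, 142 and 117 CPM in WT control livers. The highest NASH library lay far below the lowest control library, and the log2 fold change was -1.79, SE 0.17, adjusted p = 7.17e-05.
Cyp51, the lanosterol demethylase, had 67.5, 49.0, 46.5 and 26.6 CPM in WT NASH livers, against 102, 222 and 114 CPM in WT control livers. The control with 222 CPM stood above the other two, the groups did not overlap, and the log2 fold change was -1.62, SE 0.34, adjusted p = 0.0063.
Nsdhl, which removes the C4 methyl groups of sterols, had 31.9, 37.6, 27.6 and 11.9 CPM in WT NASH livers, against 63.4, 102 and 57.7 CPM in WT control livers. The groups did not overlap, the log2 fold change was -1.45, SE 0.36, adjusted p = 0.0138, and without WT control replicate 2 the call was lost.
The other genes that fell had log2 fold changes of -1.39 (Pmvk) to -0.62 (Lbr). Sqle did not pass although its groups did not overlap, at 25.0, 18.6, 16.5 and 2.95 CPM in WT NASH livers against 30.7, 110.0 and 84.5 CPM in WT control livers. The change of Sqle was -2.26 log2 units (SE 0.85, adjusted p = 0.0744).

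The 2 Insig genes went opposite ways in WT males. Insig1, which is itself an SREBP2 target, fell. It had 147, 244, 174 and 114 CPM in WT NASH livers, against 284, 212 and 631 CPM in WT control livers. Its log2 fold change was -1.15, SE 0.38, adjusted p = 0.0432, and the groups overlapped. The control with 631 CPM is the library with contradicting sex genes. Of the other controls, the one with 212 CPM lay within the NASH range and the one with 284 CPM above it. Whether the Insig1 call holds without the 631 CPM library is not given here. Insig2, known in liver for a transcript that insulin lowers, rose: it had 234, 279.8, 198 and 149 CPM in WT NASH livers, against 128, 109.8 and 86.5 CPM in WT control livers, with no overlap and a log2 fold change of 0.99, SE 0.23, adjusted p = 0.0101. Scap, the escort of SREBP2, fell by 1.14 on the log2 scale, and its groups did not overlap (87.7, 127, 107 and 109 CPM in WT NASH livers, against 249, 266 and 195 CPM in WT control livers). Srebf2 itself did not pass. Srebf2 gave a log2 fold change of -0.33, SE 0.22, adjusted p = 0.296.
Total liver mixes cell types, and fewer cells of a type cannot be told apart from less RNA per cell. Of the 10 hepatocyte markers 5 also fell, with a median log2 fold change of -0.77 and a summed level of 102030 to 121420 CPM in WT NASH livers against 48436 to 177710 CPM in WT control livers. Here and below, ranges of summed markers in male WT control livers include both versions of the library deposited in 2 versions. Of the 8 lipid-associated macrophage markers 6 rose and 1 fell, at a summed 337 to 1512 CPM in WT NASH livers against 335 to 455 CPM in WT control livers, which overlap. Cholangiocyte markers, a list that also holds Spp1, did not overlap (2 of 5 rose; a summed 144 to 772 CPM in WT NASH livers against 26.2 to 43.0 CPM in WT control livers), nor did recruited monocyte markers (4 of 6 rose; 20.8 to 59.9 CPM in WT NASH livers against 4.36 to 13.3 CPM in WT control livers). Of the 7 stellate cell markers 3 rose, at 523 to 1020.5 CPM in WT NASH livers against 264 to 584 CPM in WT control livers. The part of these cell types in the sterol gene counts was not tested. Leaving out each library in turn gave 12 to 19 genes called, and leaving out the control library with contradicting sex genes gave 14.

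**Figure D3:**
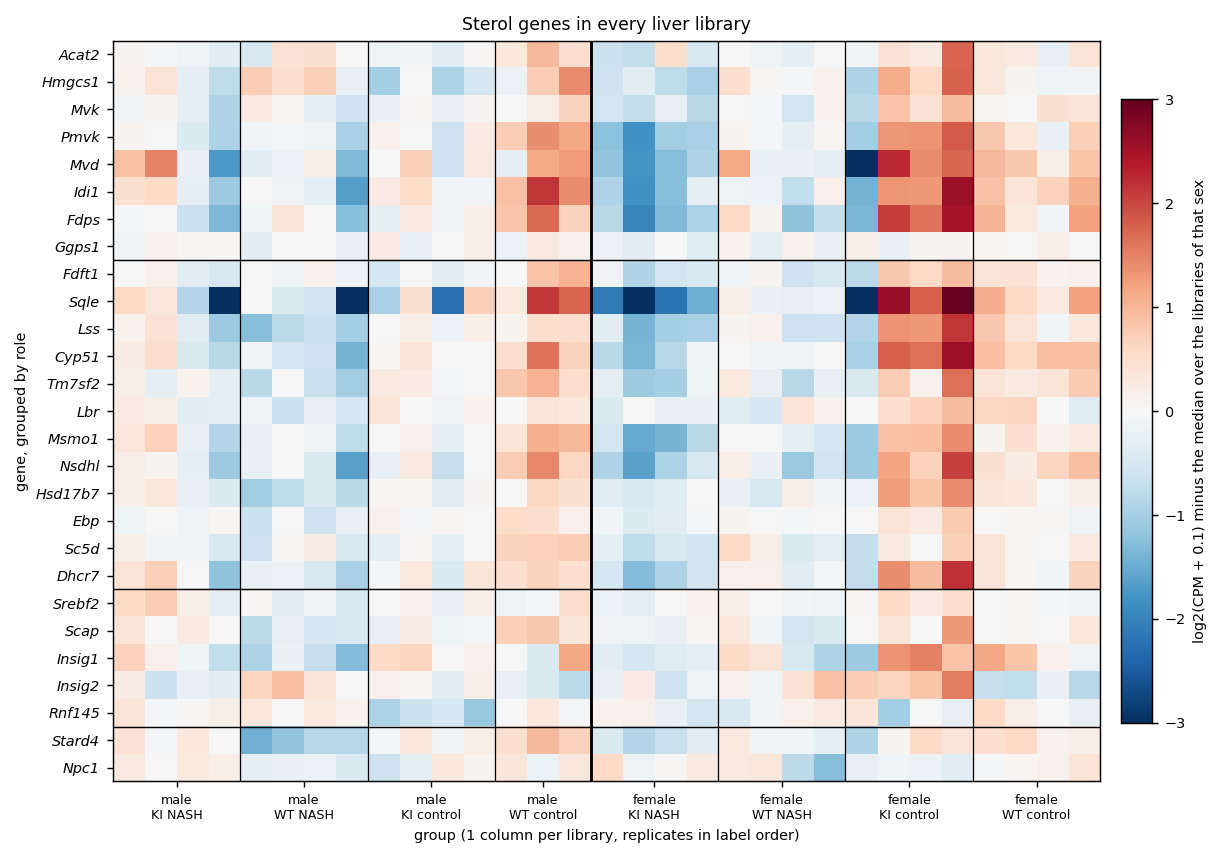
Every liver library as a column and the 27 genes as rows, coloured by log2(CPM + 0.1) minus the median over the libraries of that sex. Male WT controls and 3 of the 4 female KI controls are the red columns, and female KI control replicate 1, the leftmost of its group, is blue like the KI NASH livers.

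In livers of KI males on the NASH diet no member and no gene (0%) passed in edgeR. The median log2 fold change was -0.03 over the members and 0.01 over all genes. DESeq2 called 1 member, among 44 genes in all, and 1 had an unadjusted p under 0.05, beside 6.5% of all genes. That 1 gene, in both, was Rnf145, with 65.4, 47.5, 50.9 and 55.7 CPM in KI NASH livers, against 25.4, 31.5, 34.9 and 22.2 CPM in KI control livers. Rnf145 had a log2 fold change of 0.94, SE 0.15, adjusted p = 0.108. Its groups did not overlap. The next smallest p was that of Npc1, with 198, 163, 201 and 186 CPM in KI NASH livers, against 106, 133, 202 and 173 CPM in KI control livers, which overlapped. The change of Npc1 was 0.29 log2 units (SE 0.18, adjusted p = 0.886).

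Tested directly, the diet effect in male livers was not the same in KI as in WT for 2 of the 27 genes, both more positive in KI, where 1.18% of all genes differed either way. For Stard4 the difference was 1.88 log2 units (SE 0.23, adjusted p = 0.00373): it had 97.1, 70.7, 90.7 and 72.2 CPM in KI NASH livers, against 70.9, 90.0, 68.6 and 81.5 CPM in KI control livers, beside the fall in WT given above. For Scap it was 1.36 log2 units (SE 0.21, adjusted p = 0.0119), with 199, 152, 183 and 154 CPM in KI NASH livers, against 128, 176, 138 and 147 CPM in KI control livers. The median of this difference was 0.89 over the members and 0.02 over all genes. Without the control library of contradicting sex genes 6 genes passed, all more positive in KI. DESeq2 called 12 more positive and 1 more negative, among 719 genes in all.

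On the NASH diet 6 members were higher and 1 was lower in KI than in WT male livers, where 19.6% of all genes were higher and 37% differed either way, so that the members' share lay near the background. The median log2 fold change was 0.36 over the members and -0.02 over all genes. Stard4 had 97.1, 70.7, 90.7 and 72.2 CPM in KI NASH livers, against 26.7, 31.9, 40.0 and 39.8 CPM in WT NASH livers. Stard4 gave a log2 fold change of 1.26, SE 0.16, adjusted p = 0.00013. Lss, which closes the sterol rings, had 57.4, 71.9, 43.0 and 24.9 CPM in KI NASH livers, against 21.9, 31, 34.3 and 26.4 CPM in WT NASH livers. Lss had a log2 fold change of 0.79, SE 0.25, adjusted p = 0.022. Stard4 levels did not overlap, while for Lss KI NASH replicate 4 lay among the WT livers and the call was lost without WT NASH replicate 1, KI NASH replicate 1 or KI NASH replicate 2.
Hsd17b7 had 59.7, 65.9, 43.6 and 39.2 CPM in KI NASH livers, against 25.3, 30.7, 38.2 and 29.4 CPM in WT NASH livers. The change of Hsd17b7 was 0.75 log2 units (SE 0.19, adjusted p = 0.00634). Insig2 was the gene that was lower, with 174, 95.4, 125 and 118 CPM in KI NASH livers, against 234, 279.8, 198 and 149 CPM in WT NASH livers. Insig2 gave a log2 fold change of -0.75, SE 0.21, adjusted p = 0.0129. Hsd17b7 did not overlap and Insig2 did. The other 3 that were higher were Scap (0.67), Srebf2 (0.56) and Tm7sf2 (0.53). Without KI NASH replicate 1 the count was 4. Of the 8 lipid-associated macrophage markers 7 were lower in KI, at a summed 182 to 233 CPM in KI NASH livers against 337 to 1512 CPM in WT NASH livers, and 3 of the 10 hepatocyte markers were higher. The sums of 4 further lists were lower in KI without overlap: cholangiocyte (4 of 5 genes; 28.6 to 73.8 CPM in KI NASH livers against 144 to 772 CPM in WT NASH livers), stellate cell (5 of 7; 277 to 354 CPM against 523 to 1020.5 CPM), B and plasma cell (3.30 to 5.17 CPM against 5.97 to 22.4 CPM) and recruited monocyte (3 of 6; 8.45 to 16.1 CPM against 20.8 to 59.9 CPM). Most of the cholangiocyte sum is Spp1, the knock-in gene, which alone ran at 22.2 to 65.8 CPM in KI NASH livers against 133 to 698 CPM in WT NASH livers. The part of these cell types was not tested.

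On the control diet 8 members were lower in KI than in WT male livers and none was higher in edgeR. There 1.93% of all genes were lower and 4.71% differed either way. At an unadjusted p under 0.05, 15 members were lower and 1 was higher, beside 23.2% of all genes either way. DESeq2 called 13 lower and 0 higher, among 1323 genes in all. The median log2 fold change was -0.69 over the members and 0.01 over all genes.
Hmgcs1 had 55.4, 113, 58.4 and 80.0 CPM in KI control livers, against 99.6, 188 and 302 CPM in WT control livers. Hmgcs1 had a log2 fold change of -1.35, SE 0.37, adjusted p = 0.0492. Pmvk, the second kinase on mevalonate, had 38.3, 35.8, 23.0 and 41.6 CPM in KI control livers, against 59.3, 92.6 and 78.5 CPM in WT control livers. The change of Pmvk was -1.15 log2 units (SE 0.27, adjusted p = 0.0306). Hmgcs1 overlapped, since 1 WT library was low, and Pmvk did not.
Fdft1, the squalene synthase, had 46.7, 67.6, 53.9 and 63.4 CPM in KI control livers, against 67.8, 122 and 139 CPM in WT control livers. Fdft1 gave a log2 fold change of -0.92, SE 0.21, adjusted p = 0.0297. Rnf145 had 25.4, 31.5, 34.9 and 22.2 CPM in KI control livers, against 48.5, 61.6 and 48.0 CPM in WT control livers. Rnf145 had a log2 fold change of -0.89, SE 0.16, adjusted p = 0.0152. Neither overlapped, though for Fdft1 the highest KI library (67.6 CPM) was next to the lowest WT library (67.8 CPM).
The other 4 were Sc5d (-0.82), Acat2 (-0.75), Scap (-0.68) and Stard4 (-0.63). The count moved with single libraries. It was 4 without WT control replicate 1, 1 without replicate 2, 3 without the library of replicates 3 and 4, and 1, 2, 1 and 1 without KI control replicates 1, 2, 3 and 4 in turn. Leaving out WT NASH replicate 3, KI NASH replicate 1 or KI NASH replicate 3, which share the estimate of spread, left 5 each. Rnf145 passed in every one of those fits, and Hmgcs1, Pmvk and Fdft1 lost their calls in 10, 5 and 6 of the 15. The summed markers of 3 cell types also separated these groups: lipid-associated macrophage (1 of 8 genes lower; 95.6 to 136 CPM in KI control livers against 335 to 455 CPM in WT control livers), Kupffer cell (787 to 968 CPM against 525 to 743 CPM) and T and NK cell (6.29 to 15.1 CPM against 2.73 to 5.38 CPM). Hepatocyte markers summed to 108170 to 119170 CPM against 48436 to 177710 CPM, and the part of these cell types was not tested.

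**Figure D4:**
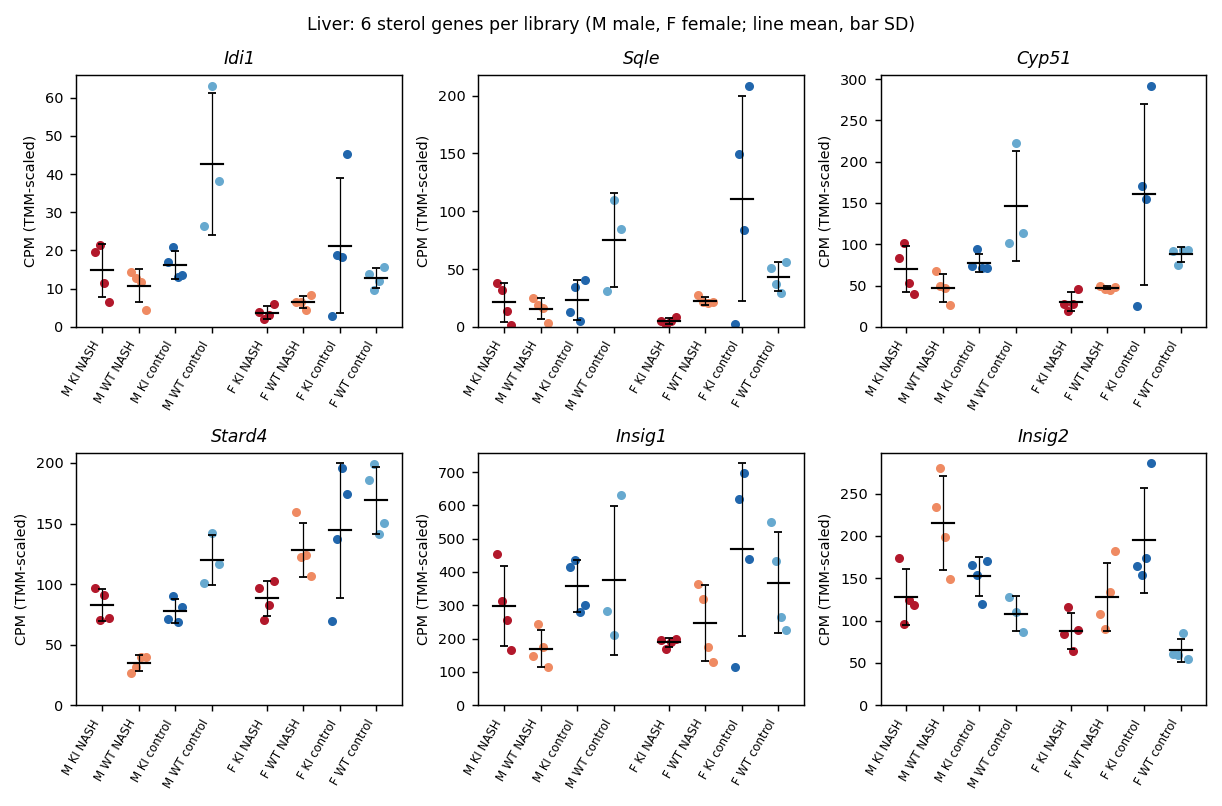
CPM of Idi1, Sqle, Cyp51, Stard4, Insig1 and Insig2 in each liver library (points), with the mean (line) and SD (bar) of each group, NASH left of control and KI left of WT, for males (M) and females (F). Stard4 is lowest in the 4 male WT NASH livers, and Insig2 is higher in male WT NASH than in male WT control livers and in female KI control than in female KI NASH livers.

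Livers of KI females gave the largest block. On the NASH diet 18 of the 27 genes fell and none rose in edgeR. There 4.63% of all genes fell and 8.83% changed either way. At an unadjusted p under 0.05, 24 members fell and 0 rose, beside 26.3% of all genes either way. DESeq2 called 22, among 1800 genes in all. The median log2 fold change was -1.22 over the members and 0.00 over all genes. By role 6 of the 8 early enzymes fell, 10 of the 12 enzymes from squalene on, 2 of the 5 controllers and neither carrier.
Sqle, the epoxidase that commits squalene to sterols, had 5.51, 1.90, 5.20 and 8.66 CPM in KI NASH livers, against 2.12, 149.6, 83.9 and 208 CPM in KI control livers. The change of Sqle was -4.39 log2 units (SE 0.82, adjusted p = 0.00736). Fdps, the farnesyl pyrophosphate synthase, had 51.7, 23.0, 36.2 and 47.5 CPM in KI NASH livers, against 35.3, 383, 285 and 511 CPM in KI control livers. Fdps gave a log2 fold change of -2.94, SE 0.60, adjusted p = 0.0115. In both, KI control replicate 1 lay within the NASH range and the other 3 controls far above it.
Mvd, which makes the first isoprenoid unit, had 4.02, 2.66, 3.74 and 4.89 CPM in KI NASH livers, against 1.00, 44.5, 25.0 and 31.4 CPM in KI control livers. Mvd had a log2 fold change of -2.74, SE 0.66, adjusted p = 0.0203. Idi1 had 3.85, 2.03, 3.01 and 6.02 CPM in KI NASH livers, against 2.73, 18.8, 18.3 and 45.3 CPM in KI control livers. The change of Idi1 was -2.52 log2 units (SE 0.55, adjusted p = 0.0139). Replicate 1 of the controls lay below every NASH liver for Mvd and among them for Idi1, and the Mvd call was lost without KI control replicate 4, KI NASH replicate 2 or KI NASH replicate 3.
The other enzymes that fell had log2 fold changes of -2.43 (Pmvk) to -0.61 (Ebp). Insig2 fell too, with 83.7, 116, 63.8 and 88.5 CPM in KI NASH livers, against 164, 154, 174 and 286 CPM in KI control livers, which did not overlap. Insig2 gave a log2 fold change of -1.15, SE 0.25, adjusted p = 0.0136. Srebf2 fell by 0.45 on the log2 scale. Without KI control replicate 1, 23 of the 27 genes fell, among 1143 genes called in all. The median log2 fold change of the members was then -1.46. Without KI control replicate 4 or KI NASH replicate 2 the counts were 10 and 11. Of the 10 hepatocyte markers 2 fell, at a summed 95183 to 119020 CPM in KI NASH livers against 104040 to 141580 CPM in KI control livers. The summed level of each of the 10 marker lists overlapped between these groups, and the part of the cell types was not tested.

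In livers of WT females no member passed on the NASH diet in edgeR, where 0.0526% of all genes did. DESeq2 called 1 member, among 327 genes in all, and 1 had an unadjusted p under 0.05, beside 13.7% of all genes. The median log2 fold change was -0.36 over the members and 0.00 over all genes, and 23 of the 27 were below 0. The gene with the smallest p was Insig2, with 107, 90.0, 134 and 182 CPM in WT NASH livers, against 60.6, 59.0, 84.9 and 54.6 CPM in WT control livers. Insig2 had a log2 fold change of 0.99, SE 0.25, adjusted p = 0.124. The next was Nsdhl, with 39.8, 30.3, 16.1 and 22.9 CPM in WT NASH livers, against 47.4, 40.5, 54.4 and 65.4 CPM in WT control livers. The change of Nsdhl was -0.93 log2 units (SE 0.45, adjusted p = 0.386). Neither gene overlapped between the groups, though the highest NASH liver and the lowest control were close for Nsdhl. Hepatocyte markers summed lower without overlap, at 100330 to 112880 CPM in WT NASH livers against 116520 to 132230 CPM in WT control livers. T and NK cell sums and B and plasma cell sums were lower too, without overlap. Cholangiocyte sums (61.577 to 104.29 CPM against 26.637 to 37.481 CPM) and recruited monocyte sums were higher without overlap. The other marker sums overlapped, and the part of the cell types was not tested.

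Between the genotypes, the diet effect in female livers differed for 1 of the 27 genes, where 4.77% of all genes differed. This was Insig2, whose difference was -2.13 log2 units (SE 0.35, adjusted p = 0.0102). On the control diet it was also the only member called between KI and WT, where 7.57% of all genes were called: it had 164, 154, 174 and 286 CPM in KI control livers, against 60.6, 59.0, 84.9 and 54.6 CPM in WT control livers, with no overlap. Insig2 gave a log2 fold change of 1.59, SE 0.25, adjusted p = 0.00382. DESeq2 called 6 members for the difference in diet effect, among 1253 genes in all, and 4 on the control diet, among 1630. At an unadjusted p under 0.05 there were 13 members for the difference, beside 22.8% of all genes, and 7 on the control diet, beside 25.1%. On the NASH diet no member passed in edgeR, where 0.0901% of all genes did, or in DESeq2, where 158 genes did. At an unadjusted p under 0.05, 8 members were lower, beside 13.0% of all genes either way. The smallest p there were those of Pmvk, with 24.2, 16.1, 27.5 and 29.3 CPM in KI NASH livers, against 60.4, 55.7, 47.2 and 58.8 CPM in WT NASH livers (log2 fold change -1.19, SE 0.40, adjusted p = 0.25), and of Sqle. Sqle had a log2 fold change of -2.09, SE 0.76, adjusted p = 0.274. For both genes every KI NASH library lay below every WT NASH library.
All 3 counts changed without KI control replicate 1. Without it the diet effect was more negative in KI for 14 of the 27 genes, among 761 genes called in all. On the control diet 13 were higher in KI than in WT, among 1059 genes called. On the NASH diet 1 (Sqle) was lower in KI than in WT, among 14 genes called. In those fits Insig2 was still called in the first 2 comparisons, with log2 values of -2.21 and 1.65. In CPM that library had 115 of Insig1, against 439 to 698 in the other KI controls, but 164 of Insig2, against 154 to 286.

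Whether the diet acted differently in livers of females and males was tested directly, although the sexes come from separate tables, so that sex and table cannot be told apart. In WT 2 of the 27 genes differed, where 1.65% of all genes did. For Stard4 the difference was 1.44 log2 units (SE 0.31, adjusted p = 0.0203): it had 159.7, 122, 124 and 106 CPM in female WT NASH livers, against 186, 199, 142 and 150.3 CPM in female WT control livers, beside the male fall above. Ebp, the sterol isomerase, differed by 0.82 log2 units (SE 0.21, adjusted p = 0.0453). It had 224, 211, 201 and 209.6 CPM in female WT NASH livers, against 207, 218, 214 and 197 CPM in female WT control livers, and in males 161, 253, 164 and 218 CPM in WT NASH livers, against 368, 361 and 283 CPM in WT control livers. The females overlapped in both genes and the males did not. In KI 1 gene differed, where 0.596% of all genes did: the difference of Pmvk was -2.17 log2 units (SE 0.50, adjusted p = 0.0429). It had 24.2, 16.1, 27.5 and 29.3 CPM in female KI NASH livers, against 27.9, 144, 147 and 204 CPM in female KI control livers, and in males 37.4, 35.2, 26.7 and 18.5 CPM in KI NASH livers, against 38.3, 35.8, 23.0 and 41.6 CPM in KI control livers. The female controls other than replicate 1 stood far above all other KI livers for Pmvk. DESeq2 called 12 members in KI, among 296 genes in all. Without female KI control replicate 1 the edgeR count in KI was 14, all more negative in females, among 101 genes called. It was 4 without female WT NASH replicate 3 and 5 without male KI NASH replicate 4. It was 0 in the 15 of 31 fits without female KI control replicate 3 or 4, any female KI NASH library, female WT control replicate 1 or 4, male WT NASH replicate 3, male KI control replicate 1, 2 or 3, or male KI NASH replicate 1, 2 or 3. In WT the Stard4 call was lost without male WT control replicate 2 or female WT control replicate 4. The Ebp call was lost in 19 of the 31 fits, those without any female WT control, male WT control replicate 1 or 2, female KI control replicate 2 or 3, female WT NASH replicate 1, 3 or 4, male WT NASH replicate 1 or 3, any male KI control, or male KI NASH replicate 1 or 3.

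In macrophages the calls were mostly upward. In KI males 12 of the 27 rose and 1 fell on the NASH diet, where 15.1% of all genes rose and 24% changed either way, with a median log2 fold change of 0.38 over the members and 0.01 over all genes. By role 4 of the 8 early enzymes rose, 7 of the 12 enzymes from squalene on (with Lbr falling), none of the 5 controllers and 1 of the 2 carriers.
Sqle had 6.41, 4.71, 2.84, 5.35 and 0.913 CPM in KI NASH macrophages, against 0.516, 1.06, 0.321 and 0.952 CPM in KI control macrophages. The change of Sqle was 2.51 log2 units (SE 0.70, adjusted p = 0.0156). Fdft1 had 8.82, 7.98, 5.93, 8.48 and 3.65 CPM in KI NASH macrophages, against 2.12, 2.18, 2.66 and 3.93 CPM in KI control macrophages. Fdft1 gave a log2 fold change of 1.36, SE 0.33, adjusted p = 0.00752. In both genes NASH replicate 5 was low and overlapped the controls, and the Sqle call was lost without KI control replicate 3.
Hsd17b7 had 3.08, 2.61, 1.79, 3.74 and 1.57 CPM in KI NASH macrophages, against 0.974, 1.23, 1.01 and 1.07 CPM in KI control macrophages. Hsd17b7 had a log2 fold change of 1.25, SE 0.28, adjusted p = 0.00425. Hmgcs1 had 56.8, 41.8, 29.2, 38.5 and 27.2 CPM in KI NASH macrophages, against 19.5, 15.5, 16.6 and 20.5 CPM in KI control macrophages. The change of Hmgcs1 was 1.10 log2 units (SE 0.22, adjusted p = 0.00277). Neither of these overlapped.
The other genes that rose had log2 fold changes of 1.03 (Idi1) to 0.34 (Npc1). Lbr, the sterol reductase that is also a receptor of the nuclear lamina, fell: it had 59.3, 52.2, 59.4, 60.6 and 54.9 CPM in KI NASH macrophages, against 81.3, 79.8, 79.2 and 80.6 CPM in KI control macrophages, with no overlap. Lbr gave a log2 fold change of -0.49, SE 0.07, adjusted p = 0.000646.
Hepatocyte markers moved with this block: all 10 rose, at a summed 490 to 2848 CPM in KI NASH macrophages against 179 to 259 CPM in KI control macrophages, while 7 of the 10 Kupffer cell markers fell, at a summed 16814 to 38091 CPM in KI NASH macrophages against 39128 to 42450 CPM in KI control macrophages. The highest hepatocyte sum was 2.68% of the median sum in male KI NASH livers. At that share the mean liver level would bring 0.573 CPM of Sqle, 1.63 CPM of Fdft1, 1.40 CPM of Hsd17b7 and 2.89 CPM of Hmgcs1, beside differences between NASH and control means of 3.33, 4.25, 1.49 and 20.7 CPM. All 8 lipid-associated macrophage markers rose, at a summed 2172 to 7990 CPM in KI NASH macrophages against 1342 to 1775 CPM in KI control macrophages, as did 5 of the 6 recruited monocyte markers (149 to 501 CPM against 81.2 to 194 CPM). The cholangiocyte list, of which only Spp1 passed the filter on low counts, summed to 44.9 to 199.6 CPM in KI NASH macrophages against 7.46 to 11.7 CPM in KI control macrophages. Neutrophil markers summed to 117 to 158 CPM against 163 to 181 CPM, and the part of all these cell types was not tested. The count was 7 without KI control replicate 1, KI control replicate 3 or KI NASH replicate 1, and 8 without KI control replicate 2 or KI NASH replicate 2.

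**Figure D5:**
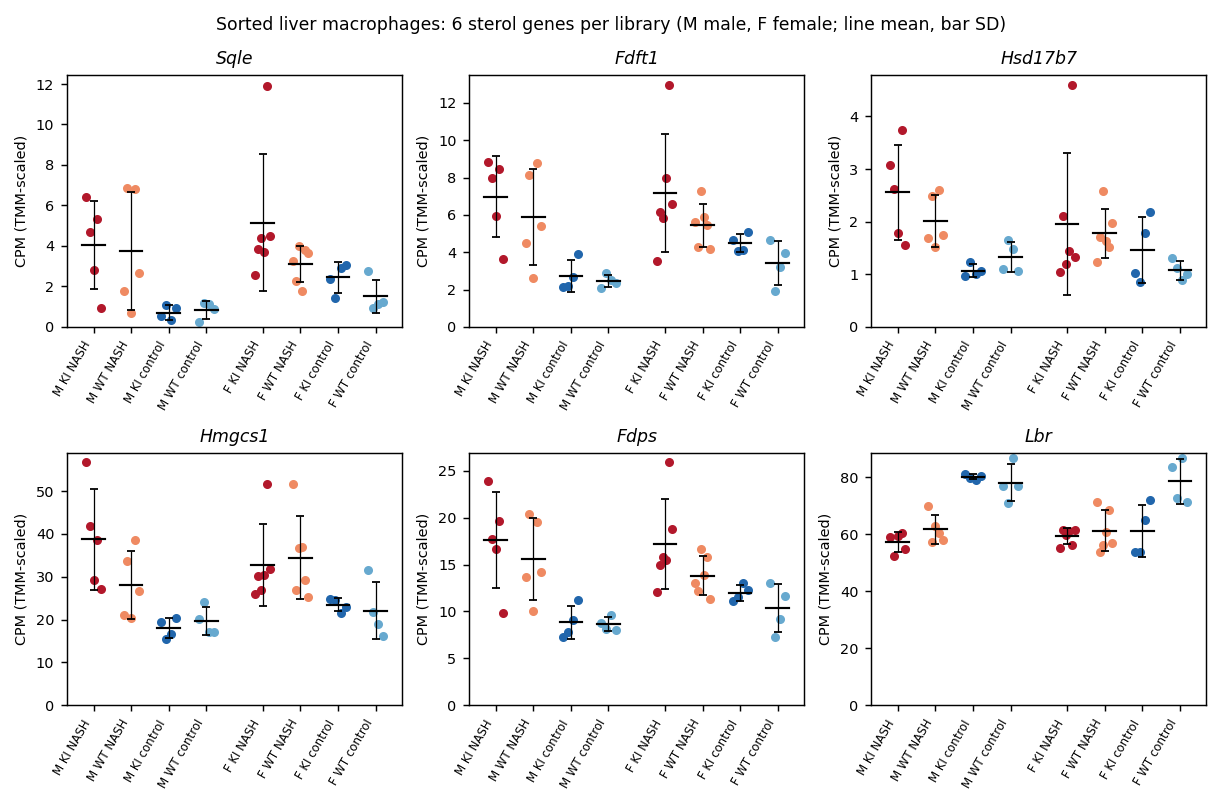
CPM of Sqle, Fdft1, Hsd17b7, Hmgcs1, Fdps and Lbr in each macrophage library (points), with the mean (line) and SD (bar) of each group, NASH left of control and KI left of WT, for males (M) and females (F). In males the group means of the 5 synthesis genes are higher on the NASH diet in both genotypes and that of Lbr is lower. Among females KI NASH replicate 5 is the highest point for Sqle, Fdft1, Hsd17b7, Fdps and, narrowly, Hmgcs1 (51.7 CPM, against 51.5 CPM in WT NASH replicate 1).

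In macrophages of WT males 3 members rose and 1 fell on the NASH diet, where 8.19% of all genes changed, with a median log2 fold change of 0.16 over the members and 0.01 over all genes.
Fdft1 had 4.49, 8.11, 2.63, 8.77 and 5.41 CPM in WT NASH macrophages, against 2.08, 2.89, 2.54 and 2.35 CPM in WT control macrophages. Fdft1 had a log2 fold change of 1.25, SE 0.33, adjusted p = 0.0309. Fdps had 13.6, 20.4, 10.1, 19.6 and 14.2 CPM in WT NASH macrophages, against 8.76, 8.16, 9.65 and 8.07 CPM in WT control macrophages. The change of Fdps was 0.85 log2 units (SE 0.23, adjusted p = 0.0354). NASH replicate 3 was the lowest in both, within the controls for Fdft1 and just above them for Fdps.
Stard4 had 18.1, 30.1, 23.5, 42.9 and 35.7 CPM in WT NASH macrophages, against 17.1, 20.7, 15.1 and 17.0 CPM in WT control macrophages. Stard4 gave a log2 fold change of 0.78, SE 0.21, adjusted p = 0.0302. Lbr had 70.1, 57.3, 63.0, 60.6 and 57.9 CPM in WT NASH macrophages, against 77.1, 71.2, 86.9 and 77.1 CPM in WT control macrophages. Lbr had a log2 fold change of -0.34, SE 0.07, adjusted p = 0.0164. Stard4 overlapped at 1 NASH library and Lbr did not overlap.
Of the 8 lipid-associated macrophage markers 5 rose here, at a summed 1837 to 6241 CPM in WT NASH macrophages against 1651 to 1726 CPM in WT control macrophages. The cholangiocyte list, of which only Spp1 passed the filter on low counts, summed to 6.5 to 56.4 CPM in WT NASH macrophages against 0.315 to 0.848 CPM in WT control macrophages. Neither sum overlapped. Of the other lists, 5 of the 7 sinusoidal endothelial markers rose (1080.4 to 2625 CPM in WT NASH macrophages against 696 to 1086 CPM in WT control macrophages), as did 3 of the 6 recruited monocyte markers, and 2 of the 10 Kupffer cell markers fell (24332 to 39644 CPM in WT NASH macrophages against 38582 to 42754 CPM in WT control macrophages). The 10 hepatocyte markers had a median log2 fold change of -0.04, at a summed 68.5 to 346 CPM in WT NASH macrophages against 119 to 472 CPM in WT control macrophages. The part of these cell types was not tested. Leaving out WT NASH replicate 4 or any of WT control replicates 1, 2 and 3 gave a count of 0. It was 2 without WT NASH replicate 2, where Fdft1 and Fdps lost their calls, and 1 (Lbr) without WT control replicate 4, the library with contradicting sex genes. The Stard4 call was also lost without WT NASH replicate 5.
The diet effect in KI minus WT males was called for no member and no gene (0%) in edgeR. DESeq2 called no member, among 250 genes in all. At an unadjusted p under 0.05 there was 1 member, Npc1 (difference 0.48, SE 0.15, adjusted p = 0.21), beside 12.2% of all genes. Between KI and WT on the control diet the counts were also 0 members and no gene (0%) in edgeR, and 0 members among 5 genes in DESeq2. At an unadjusted p under 0.05 there was 1 member, Stard4, beside 6.6% of all genes. Stard4 had 26.4, 28.2, 25.9 and 27.1 CPM in KI control macrophages, against 17.1, 20.7, 15.1 and 17.0 CPM in WT control macrophages (log2 fold change 0.62, SE 0.21, adjusted p = 0.635). On the NASH diet 0 members and 3.13% of all genes were called in edgeR, and 0 members among 794 genes in DESeq2. At an unadjusted p under 0.05 there were 4 members, beside 16.9% of all genes. The smallest p were those of Sc5d (log2 fold change 0.44, SE 0.17, adjusted p = 0.189) and Npc1. The change of Npc1 was 0.26 log2 units (SE 0.10, adjusted p = 0.192).

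In macrophages of females few members passed. In WT females only Lbr passed on the NASH diet, falling with 54.0 to 71.5 (median 59.0) CPM in WT NASH macrophages, against 83.8, 72.6, 86.7 and 71.2 CPM in WT control macrophages (log2 fold change -0.36, SE 0.09, adjusted p = 0.0206), where 12.9% of all genes changed. The highest NASH library lay just above the lowest control. The Lbr call was lost without WT control replicate 1 or 3, and the count was 0 without WT control replicate 3, 2 without WT control replicate 1, WT NASH replicate 2 or WT NASH replicate 6, and 4 without KI NASH replicate 5. Kupffer cell markers separated these groups (3 of 10 fell; 30572 to 39053 CPM in WT NASH macrophages against 41849 to 45502 CPM in WT control macrophages), and 6 of the 8 lipid-associated macrophage markers rose.
In KI females no member passed in edgeR, where 2.31% of all genes did. DESeq2 called 2 (Sc5d and Cyp51), among 946 genes in all. At an unadjusted p under 0.05 there were 8 members, 7 of them higher on the NASH diet, beside 19.6% of all genes. Sc5d had 12.1 to 23.0 (median 14.0) CPM in KI NASH macrophages, against 12.1, 8.86, 9.80 and 11.6 CPM in KI control macrophages. Sc5d gave a log2 fold change of 0.51, SE 0.17, adjusted p = 0.0924. Cyp51 had 16.8 to 44.2 (median 24.2) CPM in KI NASH macrophages, against 18.6, 14.6, 14.4 and 16 CPM in KI control macrophages. Cyp51 had a log2 fold change of 0.69, SE 0.24, adjusted p = 0.113. In both, replicate 5 of the NASH macrophages stood above the other 5. Hepatocyte markers rose in females too, 7 of 10 in WT (226 to 1772 CPM in WT NASH macrophages against 121 to 334 CPM in WT control macrophages) and 7 of 10 in KI (58.2 to 702 CPM in KI NASH macrophages against 24.9 to 66.6 CPM in KI control macrophages), and their part was not tested.
Between KI and WT females on the control diet Lbr was the 1 member called, where 4.64% of all genes were: it had 53.9, 53.7, 65.0 and 72.2 CPM in KI control macrophages, against the WT control levels above (log2 fold change -0.36, SE 0.10, adjusted p = 0.0498), and the call was kept in 5 of the 20 fits without 1 library, those without WT NASH replicate 1, 2 or 5, KI control replicate 4 or KI NASH replicate 5. Without KI control replicate 4, 2 members were called. Several marker sums separated the same groups: Kupffer cell (1 of 10 genes lower; 34371 to 36632 CPM in KI control macrophages against 41849 to 45502 CPM in WT control macrophages), hepatocyte (3 of 10 lower; 24.9 to 66.6 CPM against 121 to 334 CPM) and stellate cell (4 of 7 lower; 20.9 to 41.4 CPM against 90.4 to 226 CPM). Their part was not tested. On the NASH diet 0 members and 0.561% of all genes were called in edgeR, and 0 members among 532 genes in DESeq2. At an unadjusted p under 0.05 there were 2 members, beside 18.5% of all genes. These were Pmvk (log2 fold change 0.22, SE 0.09, adjusted p = 0.199) and Sqle. The change of Sqle was 0.73 log2 units (SE 0.34, adjusted p = 0.265). The diet effect in KI minus WT was called for 0 members and 0.288% of all genes in edgeR, and for 0 members among 148 genes in DESeq2. At an unadjusted p under 0.05 there was 1 member, Lbr (difference 0.31, SE 0.13, adjusted p = 0.468), beside 9.2% of all genes.
The diet effect in females minus males was called for 0 members and 0.0224% of all genes in WT macrophages. DESeq2 called 0 members there, among 275 genes in all. At an unadjusted p under 0.05 there was 1 member, Npc1 (difference 0.39, SE 0.19, adjusted p = 0.279), beside 17.1% of all genes. In KI macrophages the diet effect in females minus males was called for 0 members and 0.68% of all genes in edgeR. DESeq2 called 1 member, Lbr, among 349 genes in all. At an unadjusted p under 0.05 there were 2, Lbr and Npc1, beside 15.6% of all genes. The difference was 0.46 for Lbr (SE 0.12, adjusted p = 0.0622) and -0.43 for Npc1 (SE 0.19, adjusted p = 0.257). Without male KI NASH replicate 5, female KI control replicate 4 or female KI NASH replicate 5 the counts there were 2, 1 and 1 with Lbr among them.

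Other genes of lipid and sterol handling were counted beside the 27. Fatty acid synthesis genes, which SREBP1 switches on, also fell in livers of KI females on the NASH diet (10 of 16, beside 4.63% of all genes, median log2 fold change -1.77), among them Pnpla3 (-3.17), a lipid droplet lipase, and Acss2 (-2.73), which makes acetyl-CoA from acetate. In livers of WT males 4 of the 16 fell and 1 rose, beside 21% of all genes called (median -0.73). These included Scd2, a desaturase (2.92), and Pnpla3 (-2.47).
In macrophages on the NASH diet 12 of the 16 rose in KI males, beside 15.1% of all genes (median 0.98; Fads2 3.50 and Mlxipl 3.35). In WT males 5 rose (median 0.49), beside 8.19% of all genes called either way. In WT females 8 rose (median 0.90), beside 12.9%, and in KI females 3 (median 0.48), beside 2.31%. Hepatocyte markers rose in the same comparisons in KI males and in females of both genotypes, as given above, and their part was not tested.
The list of LXR, the sterol-sensing nuclear receptor, and its targets also held Nr1h4, the gene of the bile acid receptor FXR. This list gave 5 of 9 higher and 1 lower in macrophages of KI males on the NASH diet, beside 24% of all genes called. The list was led there by Abcg8 and Abcg5, which pump sterol out of hepatocytes, and the hepatocyte markers rose beside them. In livers of WT males 1 of the 9 rose, the exporter Abcg1 (1.13), a share below the 21% of all genes. Of 16 genes of sterol transport and storage, 4 rose and 3 fell there, among them the sterol carrier Gramd1b (1.65) and Osbpl5 (1.12). In livers of KI females 2 fell, the sterol hydroxylases Cyp39a1 (-1.18) and Cyp27a1 (-1.0), beside 8.83% of all genes called.
Genes that process SREBP or degrade sterol-regulated proteins had median log2 fold changes of -0.13 in livers of WT males and -0.10 in livers of KI females on the NASH diet. Of the 13 tested in male livers, 6 passed, all higher, in KI against WT male livers on the NASH diet, beside 19.6% of all genes, led by the ligase Syvn1 (1.25) and the coat protein gene Sec24a (0.76). The isoprenoid branch uses farnesyl and geranylgeranyl pyrophosphate for prenylation, dolichol and coenzyme Q. It gave 1 of 11 higher in livers of WT males (Coq2, 0.51), below the 21% of all genes called, and 1 of 11 lower in livers of KI females (Nus1, -0.46), near the 8.83%.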

How the data were processed

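The data are 3 tables of raw read counts per gene symbol as the authors deposited them, covering 70 libraries in 16 groups. Libraries were made from poly(A) RNA with TruSeq Stranded mRNA, with RNAspin columns for liver and miRNeasy micro columns for macrophages, per the labels' protocols. Reads were placed on mm10, per the submitters' processing notes. The aligner, the counter and its strand setting, and the annotation: none is given in the sources used here. Reads of overlapping or antisense genes therefore cannot be told apart. From the counts, each tissue and sex was fitted over all its groups with edgeR 4.0.16 in R 4.3.3: TMM scaling, filterByExpr with a min.total.count of 15 and a min.count of 10, a quasi-likelihood test and Benjamini-Hochberg adjustment over all genes tested at 0.05. Sex differences came from 1 fit over both sexes. In the 3359 genes of lower count compared, male liver WT control replicates 3 and 4 differed by less than the sampling noise. Their mean chi-square per gene was 0.0671, against 2.05 or more for other pairs of a group. Among the members, replicate 3 held 70.2% (Ebp) to 89.55% (Lbr) of the counts of replicate 4, so the versions were not proportional throughout. They were counted as 1 library by their mean, which left 69. TPM used GENCODE M21 exon lengths, found for 24490 of 24982 and 23372 of 23839 symbols. The members and lists were chosen with earlier results of these data known. In each comparison the 4 members with the largest change among those called, or the 2 with the smallest p where none was, were picked out. Most are given with levels per library or as a range, some with the change alone, and a few are not given. From other lists the 2 called genes with the largest change may be named. The alternatives were DESeq2 1.42.0, RLE scaling, no filter on low counts, the replicate number as a block, either version of the doubled library alone, leaving out the libraries with contradicting sex genes, and leaving out each library. Intervals of counting error are not given, and the spread between libraries is the error throughout.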

Additional observations from a re-analysis of the deposited data

Results flagged for a closer look

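Of 68 pairs of a gene and a group of 4 to 6 libraries, 5 held a library whose gap to the others passed Dixon's 95% limit, which chance alone passes in about 1 in 20 groups. Male WT control livers, with 3 libraries, were left out of this check. In female KI NASH macrophages replicate 5 stood apart in 3 genes: Cyp51 was 44.2 CPM there, against 24.4 CPM in the next highest library, Sc5d was 23.0 against 14.0 CPM, and Sqle was 11.9 against 4.52 CPM. Insig2 was 286 CPM in female KI control liver replicate 4, against 174 CPM in the next library. Sqle was 27.5 CPM in female WT NASH liver replicate 1, and the nearest other library had 21.3 CPM.

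The diet effect differed between genotypes or sexes for 5 genes, by a test of the difference itself. In male livers it was more positive in KI than in WT for Stard4 (1.88 log2 units, adjusted p = 0.00373) and Scap (1.36, adjusted p = 0.0119). In female livers it was more negative in KI than in WT for Insig2 (-2.13, adjusted p = 0.0102). In WT livers it was more positive in females than in males for Stard4 (1.44, adjusted p = 0.0203) and Ebp (0.82, adjusted p = 0.0453), and in KI livers more negative in females for Pmvk (-2.17, adjusted p = 0.0429). All adjusted p are from edgeR's quasi-likelihood test. Of all genes, 1.18% differed between the genotypes in male livers and 4.77% in female livers. Between the sexes 1.65% of all genes differed in WT livers and 0.596% in KI livers. Leaving out 1 library, the sex-difference calls of Stard4, Ebp and Pmvk were lost in 2, 19 and 15 of 31 fits. The genotype-difference calls were kept in every such fit.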

How the results depend on the processing

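Of the 55 results of single members picked out by the rule above, none changed sign under any alternative, and 121 of their values lost and 9 gained a call. Counts of members called moved by over 1.5 times as follows. DESeq2 called 1 member for the diet in KI male livers, 1 in WT female livers and 2 in macrophages of WT and of KI females. It called 13 for KI against WT on the control diet and 13 for the genotype difference in diet effect in male livers, 4 and 6 for those comparisons in female livers, and 12 and 1 for the sex difference in KI livers and KI macrophages. No filter on low counts gave 5 for KI against WT on the control diet in male livers, 0 in female macrophages and 1 for the sex difference in WT livers, where version 3 of the doubled library alone also gave 1. RLE scaling gave 0 for KI against WT on the control diet in female macrophages. Leaving out the libraries with contradicting sex genes gave 3 for KI against WT on the control diet in male livers, 6 for the genotype difference there and 1 for the diet in WT male macrophages.

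Correlations between the deviations of same-numbered libraries lay within the range of those between libraries of different numbers. In male liver they ran at -0.135 to 0.23 against -0.292 to 0.245, and in female liver at -0.188 to 0.134 against -0.254 to 0.254. In male macrophages they ran at -0.233 to 0.563 against -0.466 to 0.57, and in female macrophages at -0.358 to 0.524 against -0.489 to 0.544. With the replicate block the count was 1 for KI against WT on the control diet in male livers, and 0 for the diet in WT female macrophages, for KI against WT on the control diet in female macrophages and for the sex difference in KI livers.

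Leaving out 1 library at a time, the counts ran from 4 to 9 for KI against WT on the NASH diet in male livers, 1 to 8 for the control diet, 2 to 6 for the genotype difference there, 10 to 23 for the diet in KI female livers, 0 to 1 for KI against WT on the NASH diet in female livers, 1 to 13 for the control diet and 1 to 14 for the genotype difference there. In macrophages they ran from 0 to 6 and 7 to 15 for the diet in WT and KI males, 0 to 4 for the diet in WT females and 0 to 2 for KI against WT on the control diet in females. The sex differences gave 0 to 2 in WT livers, 0 to 14 in KI livers and 0 to 2 in KI macrophages. The causes of these moves were not tested. Low counts limit Sqle, Hsd17b7 and Idi1 most in macrophages, where they are the lowest of the 27 by TPM. The fits leaving out a library for the sex differences were chosen after seeing the data.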
